A study of Arabidopsis thaliana with 6 samples.

Results

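Plants read light with a small set of photoreceptor proteins, and the transcripts of 10 of them were examined here in guard cells, the paired cells that open and close the stomatal pore. The genes were taken by locus: the phototropins *PHOT1* and *PHOT2*, the cryptochromes *CRY1* and *CRY2*, the phytochromes *PHYA*, *PHYB*, *PHYC*, *PHYD* and *PHYE*, and the UV-B receptor *UVR8*. The rule for the choice used no measured value. All 10 had at least 1 probe on the array, and together they had 16 probes, of 25410 genes matched to a probe and 43603 probes besides controls. All 16 probes were well above background on all 6 arrays.

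RNA came from guard cell protoplasts (GCPs), guard cells freed of their walls by enzymes, of SL plants (n = 3) and SS plants (n = 3). All plants carried the homozygous recessive *gl1* allele, which removes leaf hairs, in the Columbia (Col) ecotype, and had grown for 5 weeks. SL plants had 3 weeks of short days followed by 2 weeks of long days, in which white light of 41 µmol per square metre per second lasted 16 h of each day. SS plants spent all 5 weeks in short days, with 8 h of white light at 100 µmol per square metre per second. Day length and light intensity therefore changed together and cannot be told apart. The sample labels put the isolation of RNA at zeitgeber time (ZT, hours after lights on) 16 for SL plants and ZT 8 for SS plants, whereas the study's methods give ZT 16 for both. By the labels the time of day also differed between the groups and cannot be told apart from day length. By the methods, ZT 16 fell in the dark for SS plants and at the end of the light for SL plants. Light or dark at isolation then cannot be told apart from day length either. SL and SS arrays with the same replicate number were taken as pairs 1 to 3, since the design gives each experiment its own batch of plants, and the arrays of a pair lay on the same slide.

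Phototropins are flavin-binding kinases that sense blue light and drive phototropism, chloroplast movement and the opening of stomata. Cryptochromes are flavin-binding blue light receptors known for de-etiolation and, in the case of *CRY2*, photoperiodic flowering, and they also act in stomatal opening. Phytochromes carry a bilin pigment and switch between a red-absorbing and a far-red-absorbing form, and UVR8 is a dimer that falls apart into monomers under UV-B. These receptors are proteins, and their abundance and activation are not seen on an array, which measures only their transcripts.

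In the comparison of SL with SS, none of the 10 genes passed the test across all probes without the pairing (*limma*, adjusted p = 1.00 for each gene). Taken within pairs, *PHOT2* alone of the 10 passed it, beside 4.68% of all genes (3.12% lower in SL). It was lower in SL, at 0.673 of its SS signal at its brightest probe. The call of *PHOT2* was lost in 4 of 9 settings of the paired fit, and when pair 1 or pair 2 was left out. The 2 dimmer probes of *PHOT2* gave log2 differences of 0.09 and -0.19. *PHOT1*, *CRY1*, *PHYA*, *PHYB*, *PHYC* and *UVR8* were also lower in SL in each of the 3 pairs, by smaller or more variable amounts. *PHYE* was higher in each pair, and *CRY2* and *PHYD* went both ways. Of all genes, 24.4% were lower in SL in 3 of 3 pairs and 24.6% higher. The summed signals of 8 mesophyll, 3 pavement cell and 3 vascular markers were lower in SL in each pair too. The part of such cells in the values of the 10 genes was not tested. The number of arrays limits the precision of all these values, and signals are given after normalization between arrays, in arbitrary units.

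**Figure D1:**
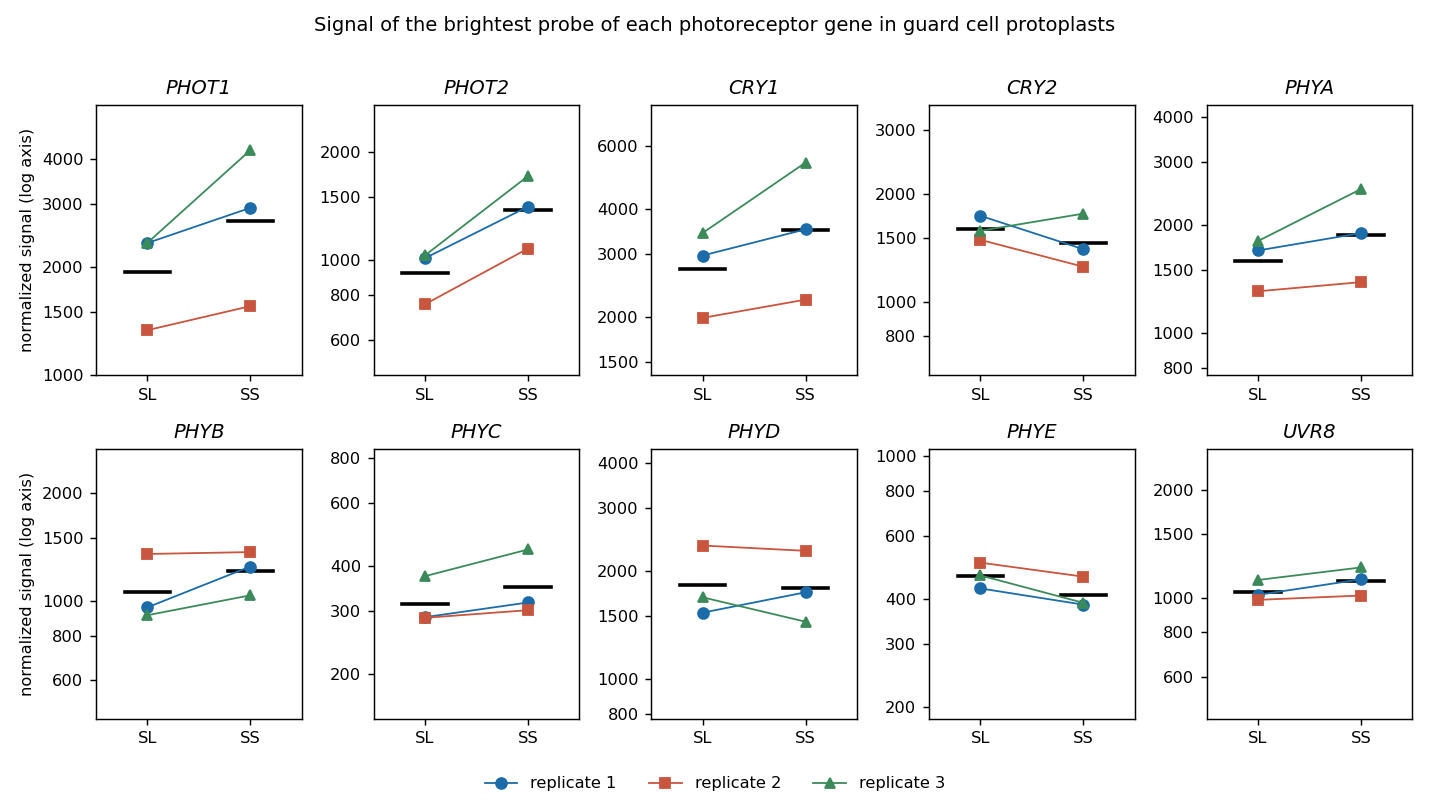
Normalized signal (log axis) of the brightest probe of each of the 10 genes in GCPs from SL plants (left) and SS plants (right); each point is 1 array, lines join the arrays of a pair, black bars are geometric means, and every panel spans the same fold range. For *PHOT2* the SL arrays, from 754 to 1032, all lie below the SS arrays, from 1078 to 1715, while the groups overlap in the other 9 panels.

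*PHOT2* (AT5G58140, chromosome 5) is the phototropin known for the chloroplast avoidance response, and acts with *PHOT1* in stomatal opening. The signal of its brightest probe was 1013, 754 and 1032 in SL replicates 1 to 3, against 1410, 1078 and 1715 in SS replicates 1 to 3. Every SL array lay below every SS array (p = 0.1 by a two-sided exact permutation test, which can give no smaller p with 3 arrays against 3). The SL/SS ratios of pairs 1 to 3 were 0.718, 0.699 and 0.601, and averaged 0.673 ± 0.063 (SD, n = 3 pairs). An exact sign-flip test over the 3 pairs gave p = 0.25, the smallest that it can give. The ratios of the 3 pairs lay close together, although both arrays of replicate 2 were the dimmest of their group.

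The log2 difference of *PHOT2* was -0.58 (SE 0.22, unadjusted p = 0.036 and adjusted p = 1.00 from *limma*, which was fitted to 28852 probes). A block for the pair, which removes what its arrays share, narrowed the SE to 0.09 and the 95% interval to between -0.80 and -0.35, with an adjusted p of 0.031 from *limma*. The block called 842 of 17997 genes at their brightest probe, or 4.68%, of which 562 were lower in SL (3.12%) and 280 higher (1.56%). Without the block 0 genes were called (0%), and 670 (3.72%) had an unadjusted p under 0.05 from *limma*. With 1 pair left out, the blocked *limma* fit gave *PHOT2* an adjusted p of 0.112 (pair 1 out), 0.183 (pair 2 out) and 0.032 (pair 3 out), so the call was lost without pair 1 or pair 2. Without pair 2 the same fit called 0 probes of any gene. The call was also lost with arrays scaled to their 75th percentile (adjusted p = 0.126), with the processed signal scaled in that way (0.060) and with the quantile normalized series matrix (0.062), all from blocked *limma* fits, while the log2 difference stayed between -0.62 and -0.55.

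A pair of further probes for *PHOT2* were much dimmer and did not show the same difference. Their signals were 160, 145 and 180 in SL against 142, 134 and 183 in SS at 1 probe (log2 difference 0.09), and 119, 119 and 142 in SL against 145, 124 and 164 in SS at the other (log2 difference -0.19). Before background correction these probes gave median pixel intensities between 84 and 163, where the median of the negative control spots of an array lay between 48 and 66. Averaged over the 3 probes, the log2 difference of *PHOT2* was -0.22, and the blocked *limma* fit gave it an adjusted p of 0.178. The positions of the probes in the transcript were not analysed here.

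*PHOT1* (AT3G45780, chromosome 3), the phototropin of higher sensitivity, had signals of 2332, 1332 and 2334 in SL, against 2922, 1555 and 4232 in SS. The SL array was the lower one in each pair, but the groups overlapped widely (exact permutation test, two-sided, p = 0.4). The SL/SS ratios were 0.798, 0.857 and 0.552, with a mean of 0.735 ± 0.162 (SD, n = 3 pairs). The log2 difference was -0.47 (SE 0.40, 95% interval -1.43 to 0.50), and with the block the interval was -0.80 to -0.13 (adjusted p = 0.114 from *limma*). SS replicate 3 stood highest, and without it the difference was -0.14. A second, dim probe of *PHOT1* gave signals of 138, 111 and 122 in SL against 136, 115 and 163 in SS, with a log2 difference of -0.15 and both signs among the pairs. The phototropins thus had the largest differences of the 10 genes in size at their brightest probes, and only that of *PHOT2* passed the adjusted p threshold with the block. With all probes of a gene averaged the order changed: *CRY1* had the largest, at -0.40, against -0.31 for *PHOT1*, -0.24 for *PHYA* and -0.22 for *PHOT2*.

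The cryptochromes went different ways. *CRY1* (AT4G08920, chromosome 4), the main blue light receptor of seedling de-etiolation, had signals of 2971, 1991 and 3435 in SL, against 3516, 2239 and 5399 in SS. Its log2 difference was -0.35 (95% interval -1.21 to 0.50, or -0.64 to -0.070 and an adjusted p of 0.142 in the blocked *limma* fit). A second probe of *CRY1*, also bright, gave 1996, 1393 and 2089 in SL against 2445, 1646 and 3573 in SS, a log2 difference of -0.44. Both probes were lower in SL in each pair, and at both pair 3 had the largest difference.

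*CRY2* (AT1G04400, chromosome 1), whose protein is degraded in blue light, had signals of 1735, 1487 and 1576 in SL, against 1400, 1251 and 1759 in SS. SL was the higher in pairs 1 and 2 and the lower in pair 3, with a mean ratio of 1.11 ± 0.185 (SD, n = 3 pairs). The log2 difference was 0.13 (95% interval -0.15 to 0.41 with the block), and its second probe, with 1266, 1023 and 955 in SL against 1028, 970 and 990 in SS, gave 0.11 with the same sign in each pair as the first. For both cryptochromes, then, 2 bright probes gave differences of like size and the same sign.

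Among the phytochromes, *PHYA* (AT1G09570, chromosome 1), the light-labile far-red receptor, had signals of 1698, 1307 and 1805 in SL, against 1899, 1386 and 2519 in SS. It was lower in SL in each pair, with a log2 difference of -0.24 (95% interval with the block -0.50 to 0.013). *PHYB* (AT2G18790, chromosome 2), the main red light receptor of green plants, had signals of 959, 1351 and 912 in SL, against 1246, 1367 and 1036 in SS. Its log2 difference was -0.19 (95% interval with the block -0.43 to 0.05), and the arrays of replicate 2 differed by little, with an SL/SS ratio of 0.988. *PHYC* (AT5G35840, chromosome 5) had signals of 288, 287 and 374 in SL, against 316, 301 and 444 in SS, and a log2 difference of -0.15 (95% interval with the block -0.36 to 0.05). Without SS replicate 3 the difference of *PHYC* was 0.026, so its direction in the unpaired comparison depended on 1 array.

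*PHYD* (AT4G16250, chromosome 4), a close relative of *PHYB*, had signals of 1534, 2361 and 1693 in SL, against 1749, 2282 and 1447 in SS. The ratios of its pairs were 0.877, 1.03 and 1.17, so that SL was lower, about level and higher in turn, and the log2 difference was 0.029 (95% interval with the block -0.23 to 0.28). Its sign turned to -0.15 without SL replicate 2 and to -0.13 without SS replicate 3. *PHYE* (AT4G18130, chromosome 4) was the only member gene higher in SL in each pair, with 428, 505 and 465 in SL against 385, 461 and 390 in SS. The pairs differed by similar amounts, with a mean ratio of 1.13 ± 0.053 (SD, n = 3 pairs). Its log2 difference was 0.18, with a 95% interval with the block of -0.021 to 0.38 (adjusted p = 0.249, blocked *limma* fit). The second probe of *PHYE*, a dim one with 150, 144 and 115 in SL against 114, 113 and 116 in SS, was higher in SL in pairs 1 and 2 and about level in pair 3, with a log2 difference of 0.25.

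*UVR8* (AT5G63860, chromosome 5) had the smallest SE of the 10 genes, 0.13 without the block. Its signals were 1018, 986 and 1120 in SL, against 1125, 1014 and 1214 in SS, and the ratios of the pairs were 0.905, 0.973 and 0.923. The log2 difference was -0.10 (95% interval with the block -0.30 to 0.10, adjusted p = 0.491 in the blocked *limma* fit), so that its lower bound lay above the difference of *PHOT2*.

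**Figure D2:**
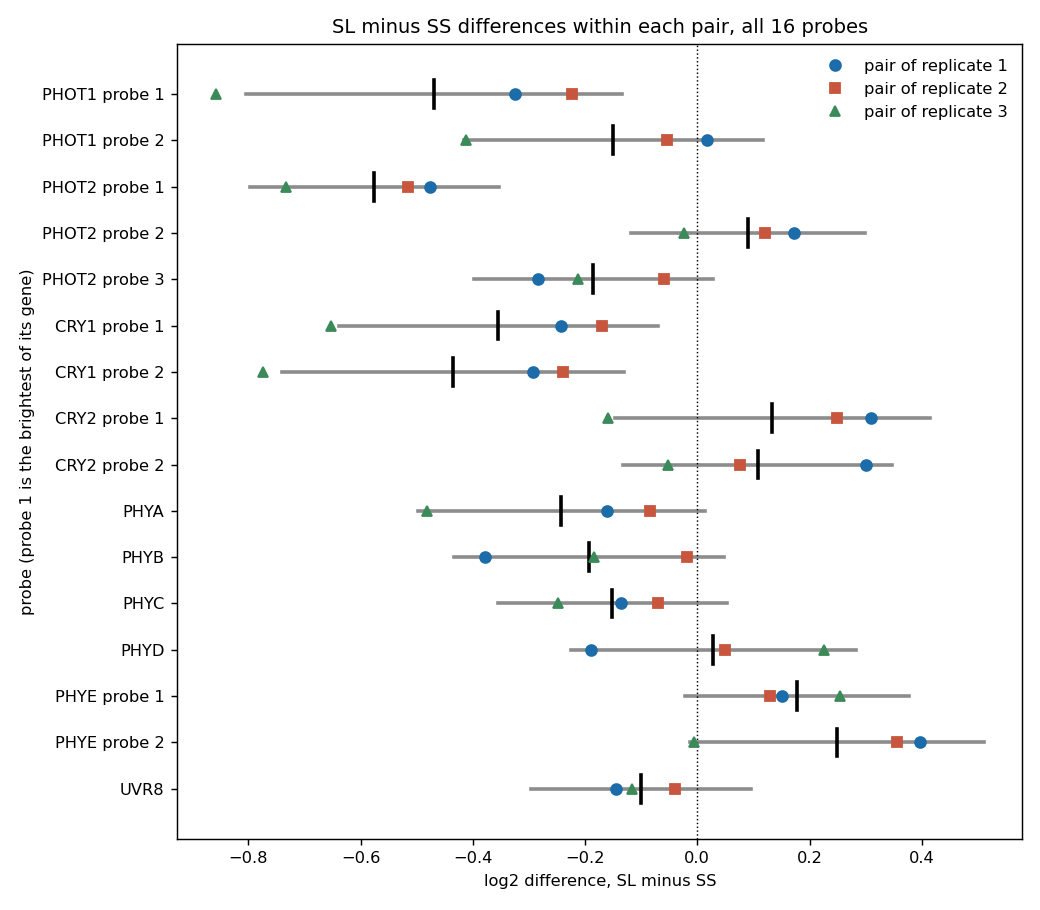
Log2 difference, SL minus SS, of all 16 probes of the 10 genes: points are the 3 pairs, black ticks their mean, and grey bars the 95% interval from *limma* with a block for the pair. The brightest probe of *PHOT2* lies between -0.73 and -0.48 in the 3 pairs, whereas its dimmer probes lie around 0.09 and -0.19.

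Over the 10 genes at their brightest probes, the median log2 difference was -0.17, beside 0.0093 over all 17997 genes tested. Taken by pair, it was -0.17, -0.055 and -0.22 in pairs 1 to 3. Lower signals in SL in 3 of 3 pairs were found for 7 of the 10 genes, beside 24.4% of all genes, and higher signals in 3 of 3 pairs for 1 of the 10, beside 24.6%. The 3 arrays of SL lay below those of SS for 1 of the 10, beside 4.2% of all genes. At an unadjusted p under 0.05 from *limma* with the block, 3 of the 10 were lower (*PHOT1*, *PHOT2* and *CRY1*), beside 13.1% of all genes. Leaving out SS replicate 3 brought the median over the 10 genes to -0.039, so that the shift of the whole group depended on that array more than on any other. These counts describe 10 genes and were not tested as a set.

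For most of the 10 genes, as for most genes on the array, the 3 replicates, each a batch of plants of its own, differed more than the groups did. Replicate 1 lay on slide 1 and replicates 2 and 3 on slide 2. The spread between batches can therefore also hold the slide and other differences between the experiments, which cannot be told apart from the plants. The mean log2 signal of a pair ranged, between the 3 batches, over more than the SL minus SS difference for 9 of the 10 genes, beside 88.2% of all genes. *PHOT2* was the exception by a narrow margin, with a range of 0.562 against a difference of -0.576. For *PHOT1* the batch means spanned 2.18-fold, for *CRY1* 2.04-fold and for *PHYA* 1.58-fold, against 1.17-fold for *UVR8*. The order of the batches was shared by many of the 10: replicate 3 was highest and replicate 2 lowest for *PHOT1*, *PHOT2*, *CRY1*, *CRY2*, *PHYA*, *PHYC* and *UVR8*, or 7 of 10 genes, beside 22.1% of all genes. *PHYB*, *PHYD* and *PHYE* had their highest signals in replicate 2 instead.

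**Figure D3:**
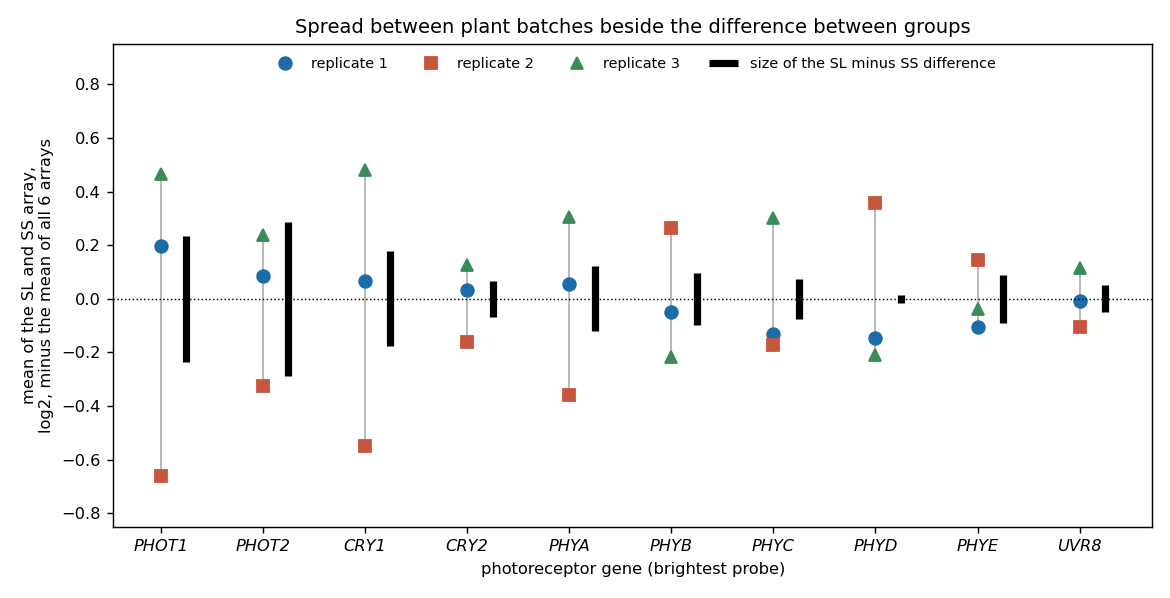
Mean log2 signal of the SL and SS array of each plant batch, relative to the mean of all 6 arrays, for the brightest probe of each gene (points), beside a black bar as long as the SL minus SS difference of that gene. The batches span more than the black bar for every gene but *PHOT2*, where span and bar are nearly equal. Replicate 2 is lowest for 7 genes and highest for *PHYB*, *PHYD* and *PHYE*.

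Within each array, the brightest probes of the 10 genes ranked from the 59.7th to the 95.7th percentile of all probes. *CRY1* lay between the 88.7th and the 95.7th percentile and *PHOT1* between the 84.2nd and the 94.4th. *PHYC* (59.7th to 67.4th) and *PHYE* (64.9th to 69.5th) ranked lowest on every array. A probe's brightness depends on its sequence as well as on its transcript, as the probes of 1 gene show: those of *PHOT2* ranked at the 76.1st percentile or above and at the 51.4th or below. The ranks are therefore no order of transcript amounts.

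Other genes that act with these receptors were taken from lists by role, 40 genes in all, of which 35 were tested. With the block 2 of the 35 were called, both lower in SL, and 0 were higher, a share near the 4.68% of all genes called (3.12% lower), so that the count says nothing particular of these genes. Without the block 0 were called. *CRY3* (AT5G24850), a cryptochrome of the organelles, had signals of 322, 485 and 618 in SL against 555, 806 and 1154 in SS. The ratios of its pairs were 0.580, 0.602 and 0.535, and its log2 difference was -0.81 (adjusted p = 0.014, blocked *limma* fit). *SPA3* (AT3G15354), a partner of the ubiquitin ligase COP1 that represses light signalling, had signals of 1067, 1204 and 1445 in SL against 1641, 1680 and 3400 in SS, and a log2 difference of -0.78 (adjusted p = 0.0498, blocked *limma* fit, just under the threshold of 0.05). Groups that did not overlap, with SL below SS, were found for 2 of the 35, beside 4.2% of all genes: *SPA3* and *RPT2* (AT2G30520), a signal transducer bound to phototropins. *RPT2*, named after its values were seen, had 1655, 2299 and 2000 in SL against 2654, 2835 and 3900 in SS at its brightest probe, with a log2 difference of -0.65 (adjusted p = 0.055, blocked *limma* fit), and its further probes gave -0.17 and -0.31.

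By role, 0 of 3 genes that make the bilin pigment, 0 of 8 partners of phototropins, 0 of 1 partner of cryptochromes, 0 of 10 partners of phytochromes and 0 of 4 partners of UVR8 were called with the block, beside 4.68% of all genes, at which lists this short would mostly hold no call. An unadjusted p under 0.05 from the blocked *limma* fit was reached by 14 of the 35 genes, beside 25.5% of all genes in either direction. Of the 35, 12 were lower in SL at that p, beside 13.1% of all genes, and 2 were higher. The medians of these 5 lists lay between -0.31 for UVR8 partners and -0.0066 for phytochrome partners. *CRY3* was the 1 called gene of 4 among the other LOV and cryptochrome proteins, and *SPA3* the 1 of 5 in the COP1-SPA ligase. The median over the 35 genes was -0.065.

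Genes whose differences in the 3 pairs lay nearest to those of the phototropins, by the root mean square distance over the 3 pairs among 17989 genes, were *NUDX19* (AT5G20070) at 0.015 and *EMB3114* (AT2G36000) at 0.029 for *PHOT2*. For *PHOT1* they were AT3G25640 at 0.025 and *TZP* (AT5G43630), a gene of the phytochrome partner list, at 0.032. The distances are on the log2 scale and, over 3 pairs, are a description only.

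Markers of cell types were set beside these values, since a protoplast preparation can hold other leaf cells and since in bulk RNA fewer cells of a type cannot be told apart from less RNA per cell. Of 9 guard cell markers, all above background on every array of at least 1 group, 1 was called with the block, beside 4.68% of all genes. It was *TGG2*, a myrosinase, at a log2 difference of -1.16. Its signal in SL replicate 2 was 87, and only 2 of its 3 SL arrays were well above background. The list's median was -0.13. Of the 9 markers, 3 were lower in SL in each pair, beside 24.4% of all genes, and 6 went both ways. The summed signal of the 9 markers was 89072, 84502 and 109570 in SL, against 91676, 83306 and 136610 in SS. It was lower in SL in pairs 1 and 3 and higher in pair 2. *TGG1*, also a myrosinase, made up most of that sum, with signals from 55445 to 91733 at its brightest probe. Of 8 mesophyll markers 7 were lower in SL and called with the block, beside 3.12% of all genes, with a list median of -0.90. *LHCB1.3*, of the light-harvesting antenna, differed by -1.11 and *RBCS1A*, a small subunit of Rubisco, by -0.96, and the carbonic anhydrase gene *CA1*, at 0.35, was not called. *LHCA1*, which binds chlorophyll in photosystem I, had the largest difference among them, with 2501, 1467 and 3482 in SL against 7744, 6767 and 10978 in SS. The summed mesophyll signal was 85544, 43007 and 82520 in SL, against 151750, 86710 and 170580 in SS, lower in SL in each pair and, in both groups, lowest in replicate 2. Of 3 vascular markers 1 was called, *SWEET11*, a sucrose transporter of the phloem, at -1.33, and of 3 pavement cell markers 0 were called, lists too short to set against the share over all genes. The summed vascular signal was 2765.8, 1710.1 and 1561.5 in SL, against 5443.3, 3308.2 and 3259.1 in SS. For pavement cell markers the sum was 33492, 23892 and 28445 in SL, against 42326, 25623 and 45033 in SS. Both sums were lower in SL in each pair. Phototropins and cryptochromes are made in mesophyll cells too, and the part of other cells in the values of *PHOT2* and the other photoreceptors was not tested.

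**Figure D4:**
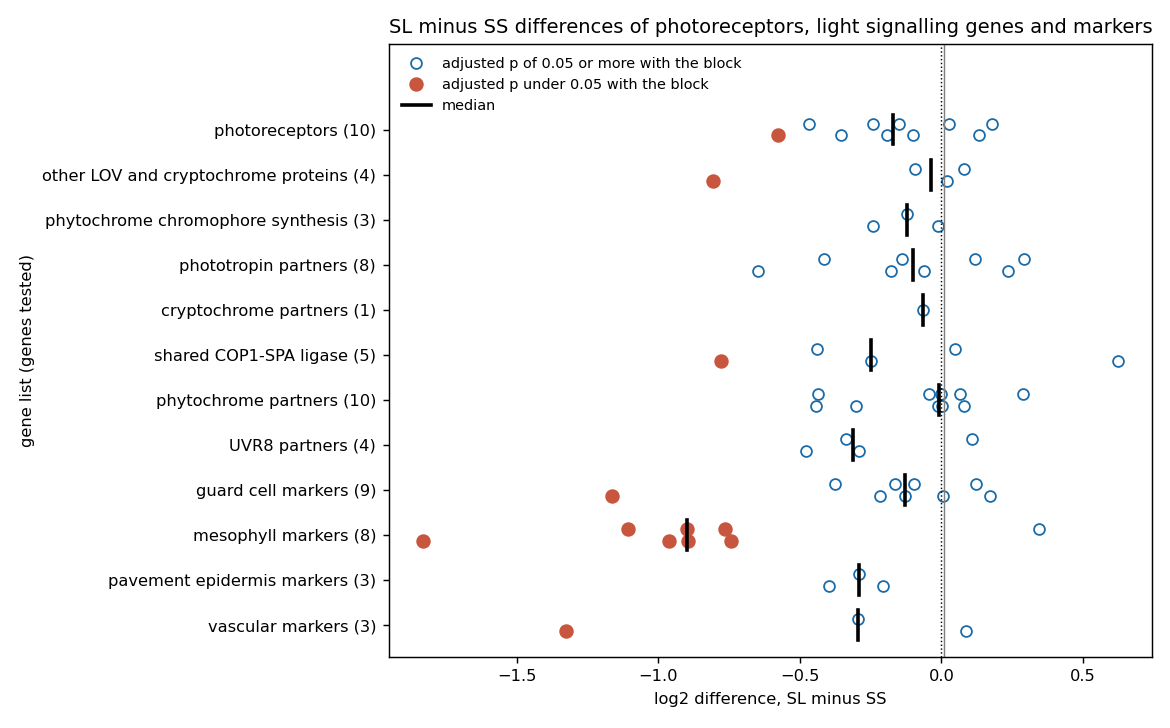
Log2 difference, SL minus SS, at the brightest probe of each tested gene (points) in the 10 photoreceptors, the lists of light signalling genes and the marker lists; filled points passed the adjusted p threshold with the replicate number as a block, black ticks are list medians, and the thin grey line is the median of all genes. *PHOT2*, *CRY3* and *SPA3* are the filled points among light signalling genes, and 7 of 8 mesophyll markers are filled, around a median of -0.90.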

How the data were processed

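RNA of GCPs from SL (n = 3) and SS (n = 3) plants was hybridized in a single colour (Cy3) to Agilent arrays, 1 sample per array. The authors scanned the arrays with Agilent Feature Extraction 11.5.1.1, and the deposited intensity values were not normalized between arrays. The deposited flags for background, saturation and outliers, other deposited columns, were used as filters.

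From these, background was removed from the median spot intensity with normexp (offset of 50), and the 6 arrays were quantile normalized on the log2 scale (R 4.3.3, *limma* 3.58.1). Control spots and outlier spots (3 to 7 per array) were left out, and 0 spots were saturated. Between 65.3% and 70.7% of probes were well above background per array. Kept were probes that 3 of 3 arrays of SL or of SS measured well above background (28852 of 43603). The accessions or loci that the arrays give matched RefSeq genes for 34348 probes, and symbols and chromosomes came from RefSeq. The brightest probe stood for a gene.

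SL and SS were compared with *limma* and Benjamini-Hochberg adjustment over the kept probes, without a block and with the replicate number as a block. On simulated data the blocked fit made a larger share of false calls than its threshold states, so that calls near the threshold are less certain than their adjusted p. The series gives each of its 3 experiments a batch of plants of its own, and deviations of same-numbered arrays correlated at 0.71, 0.855 and 0.739. All 10 photoreceptors are named; of each other list, at most 3 genes per direction called with the block, taken by size; and, for *PHOT2* and *PHOT1*, the 2 nearest genes by their differences in the pairs. *RPT2*, *CA1* and *TGG1* were added after their values were seen. The genes, lists and tests were chosen with earlier results of these data known. From the lists, 11 loci without a symbol in the tables used were left out. Alternatives were other background corrections, normalizations, filters, blocks and probes, the test named in the study's methods, and leaving out arrays or pairs.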

Additional observations from a re-analysis of the deposited data

How the results depend on the processing

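Without the block, 0 probes and 0 photoreceptor genes were called at every setting run. The number of probes at an unadjusted p under 0.05 from *limma* was 1185 with the settings of the report, and among the others with all arrays it lay between 741 (normexp signal scaled to the 75th percentile) and 1960 (no filter on dim probes). Leaving out 1 array gave as few as 701 (SS replicate 1 out) or 722 (SL replicate 2 out) and as many as 2019 (SS replicate 2 out). The methods' t-test on linear signals called 0 after Benjamini-Hochberg adjustment and 1366 probes before it. With the replicate block, 1288 probes were called, 1078 with quantile normalization within each slide, 559 with the processed signal and 47 with the normexp signal scaled to the 75th percentile. Settings added after seeing the data gave, with the block, 685 probes from the deposited series matrix, 1369 with an offset of 0, 959 without a filter and 1240 with probes above background on all 6 arrays. With the block and 1 pair left out, 38 (without replicate 1), 0 (without replicate 2) and 2473 (without replicate 3) were called. The replicate block called 1 photoreceptor gene, *PHOT2*, as it did with slide quantiles, an offset of 0, no filter and the stricter filter, and 0 in the other 4 block settings with all arrays; with a pair left out it called between 0 and 1. The adjusted p of *PHOT2* from *limma* over the 9 block settings lay between 0.031 and 0.178. The median over the 10 genes lay between -0.20 and -0.16 with all arrays, between -0.22 and -0.039 with 1 array left out, the last without SS replicate 3, and between -0.23 and -0.11 in the blocked fits of 2 pairs. *PHYD* turned to -0.15 without SL replicate 2, to -0.13 without SS replicate 3 and to -0.072 with the block and without replicate 3, and *PHYC* turned to 0.026 without SS replicate 3. With 1 array left out, *PHYD* ranged from -0.15 to 0.20 and *PHYC* from -0.29 to 0.026; with the block and 1 pair out, *PHYD* ranged from -0.072 to 0.14. The other 8 genes kept their sign at every setting run. The cause of these changes was not tested. Mean pixel signals in place of the median were not run. Dim probes, with signals near the offset, limit what differences could be seen at the second probes.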
